A study of Mus musculus with 5 samples.

Results

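Low runners (L-RUN) were compared directly with mice of the complex environment (CE), gene by gene, in RNA of the dentate gyrus (DG), the part of the hippocampus whose granule cells are also made in adult life. The members are the genes whose regularized log value, a log2 expression value that DESeq2 shrinks towards the gene's mean, differed by at least 0.3 between the L-RUN and the CE library. Of 23420 gene symbols, 13550 were expressed (mean of the 5 libraries of at least 5), and 256 of these passed the cut-off. All libraries came from wild-type male CD1 mice, an outbred stock, with an age of 4 months per the labels, and each held RNA pooled over mice. The L-RUN library held 4 mice and the CE library 8 mice, and both groups spent 4 weeks in their housing. L-RUN mice lived alone with a running disk and were the runners with the shortest distances, sorted after the running was recorded. CE mice lived in groups with tunnels and a disk that was locked. The 2 libraries thus differed at once in running, in company, in tunnels and in the number of mice pooled, and the parts of these cannot be told apart. Beside them stood a library of mice alone with a locked disk (LD, 8 mice), a library of high runners (H-RUN, 4 mice) and a library of all runners (RUN, 8 mice, the same animals as L-RUN and H-RUN together).

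Running and an enriched environment are both known to act on the DG, running above all on the birth of neurons and an enriched environment on their survival and on synapses. Granule cells receive glutamate from the cortex and pass signals on to CA3, and their activity is followed by a burst of immediate early genes, which code for transcription factors and synaptic proteins. The DG also borders the leptomeninges, the thin membranes of fibroblasts that cover the brain and follow the hippocampal fissure, so that tissue of a dissected DG can carry some of them.

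L-RUN and CE differed by little in most genes and by much in a few. Of the expressed genes, 69 (0.509%) were at least 0.3 higher in L-RUN and 187 (1.38%) at least 0.3 lower, so that 73.0% of the genes past the cut-off were lower in L-RUN. The differences had a median of -0.004 and an SD of 0.113, and 18 genes were higher and 15 lower by at least 0.5. They ranged from -0.76 for Fibcd1 to 1.67 for Ptgds. By sign, 6502 of the 13550 expressed genes were above 0 and 7048 below. These counts and the shares past the cut-off are the background for each list below. With 1 library per group there was no test, and no p-value is given for any gene or list. The only error at hand is technical, from the RUN library against a computed mixture, in equal parts, of the other libraries of the same runners. It gave a technical SD of 0.0365 for a difference between 2 libraries (0.0222 to 0.0473 over deciles of expression), and it holds no variation between mice. The cut-off was 8.23 times that SD. Nearest to the cut-off, Slc47a1 (0.3003) and Mfge8 (-0.3003) lay inside, and Cpne8 (0.2987) and Sox5 (-0.2997) lay outside. The 5282 genes with a value that were too low to count as expressed held 0 genes past 0.3, and shrinkage is strong at such low values.

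**Figure D1:**
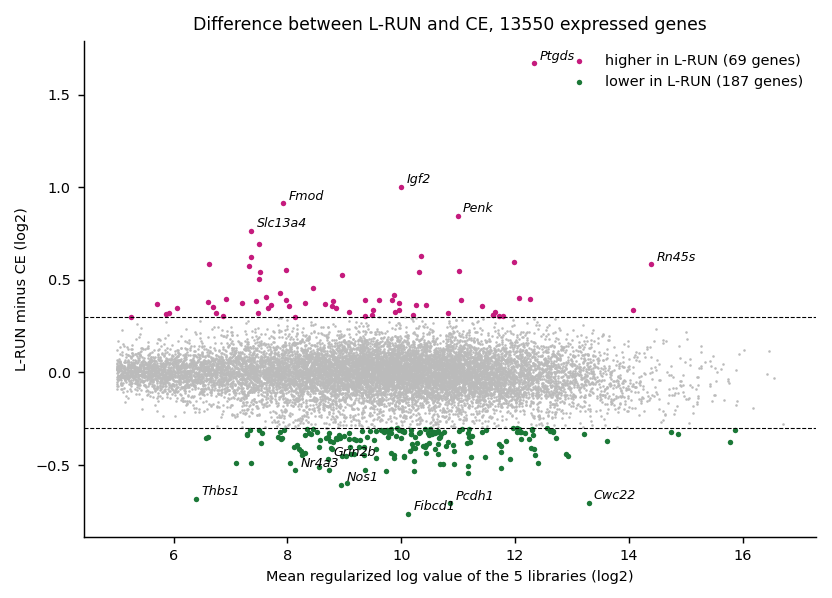
Difference between L-RUN and CE (y axis, log2) against the mean regularized log value of the 5 libraries (x axis, log2) for 13550 expressed genes, 1 point per gene, with dashed lines at 0.3 and -0.3. The 69 higher genes reach to Ptgds at 1.67, while the 187 lower genes end at Fibcd1 at -0.76.

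The L-RUN library was mostly the one that stood apart. Among LD, CE, L-RUN and H-RUN, L-RUN had the highest value in 62 of the 69 higher genes and the lowest value in 167 of the 187 lower genes. CE had the lowest value in 29 of the higher genes and the highest value in 97 of the lower genes. The choice of the genes by L-RUN minus CE sets part of this pattern, since CE could not be highest in a gene of the first list. Over all expressed genes, L-RUN was highest in 28.1% and lowest in 31.3%, and CE was highest in 24.5% and lowest in 23.2%. Against LD, which had no part in the choice of the genes, L-RUN differed more than CE did in 64 of the 69 higher and in 162 of the 187 lower genes, beside 58.5% of all expressed genes. The L-RUN and CE values that chose the genes also enter these distances, so the counts are a description. The median of L-RUN minus LD was 0.361 in the higher genes and -0.351 in the lower genes, beside medians of -0.006 and 0.020 for CE minus LD. For 25 of the lower genes, such as Thbs1 and Atp6v0c below, CE was the library farther from LD.

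The highest difference was that of Ptgds (chromosome 2, 25466709 to 25470046, minus strand), the gene of an enzyme that makes prostaglandin D2 and is secreted into cerebrospinal fluid. Its regularized log value was 11.64 in LD, 11.94 in CE, 13.61 in L-RUN, 12.98 in RUN and 11.54 in H-RUN. L-RUN was 1.67 above CE, or 3.18-fold (technical SD 0.022), and H-RUN lay below both LD and CE. Igf2 (chromosome 7, 142650766 to 142666816, minus strand), an insulin-like growth factor made by meninges and choroid plexus in the adult brain, had 9.65 in LD, 9.75 in CE, 10.75 in L-RUN, 10.23 in RUN and 9.60 in H-RUN. The difference of 1.002 went with an H-RUN library at the level of LD. Fmod (chromosome 1, 134037254 to 134048277), the small leucine-rich proteoglycan fibromodulin, had 7.58 in LD, 7.69 in CE, 8.60 in L-RUN, 8.18 in RUN and 7.60 in H-RUN, a difference of 0.91. In all 3 genes RUN, which holds both kinds of runners, lay between them.

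Of the other genes in the top 15, 8 had this shape as well. They were Slc13a4 (0.76), a sulfate transporter, Aldh1a2 (0.69), which makes retinoic acid, and Apod (0.63), an apolipoprotein of glia and fibroblasts. Slc6a13 (0.62), a GABA and taurine transporter, and Slc22a6 (0.58), an organic anion transporter, followed. Gjb2 (0.57), a connexin, Aebp1 (0.55), a collagen-binding protein, and Mgp (0.54), the matrix Gla protein, completed them. For Aldh1a2 (chromosome 9, 71215789 to 71296243) the values were 7.24 in LD, 7.31 in CE, 8.001 in L-RUN, 7.68 in RUN and 7.26 in H-RUN. For Slc6a13 (chromosome 6, 121300227 to 121337733) they were 7.13 in LD, 7.201 in CE, 7.82 in L-RUN, 7.54 in RUN and 7.09 in H-RUN. In both genes LD, CE and H-RUN lay close together and L-RUN stood above them.

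Penk and Robo3 had another shape, with all 3 libraries of runners above LD and CE. Penk (chromosome 4, 4133531 to 4138819, minus strand), the precursor of the enkephalins, had 10.46 in LD, 10.52 in CE, 11.37 in L-RUN, 11.32 in RUN and 11.29 in H-RUN. L-RUN was 0.85 above CE, or 1.799-fold (technical SD 0.031). Robo3 (chromosome 9, 37415669 to 37433246, minus strand), an axon guidance receptor, had 10.74 in LD, 10.72 in CE, 11.27 in L-RUN, 11.20 in RUN and 11.17 in H-RUN, a difference of 0.55. For these genes the difference between L-RUN and CE was thus close to that between H-RUN and CE.

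The last 2 genes of the top 15 stood apart from all others. Rn45s, the precursor of ribosomal RNA, had 14.26 in LD, 14.08 in CE, 14.66 in L-RUN, 14.38 in RUN and 14.58 in H-RUN, a difference of 0.58. Lars2, a mitochondrial tRNA ligase whose locus holds a stretch like ribosomal RNA, had 11.78 in LD, 11.67 in CE, 12.26 in L-RUN, 12.04 in RUN and 12.20 in H-RUN, a difference of 0.60. In both genes RUN lay below L-RUN and below H-RUN, the libraries of the same mice. When the level of the low runners was derived from RUN and H-RUN, the differences from CE were 0.06 for Rn45s and 0.20 for Lars2, and both genes then missed the cut-off. Libraries of polyadenylated RNA should hold little ribosomal RNA, and the part of its share in other differences was not tested.

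**Figure D2:**
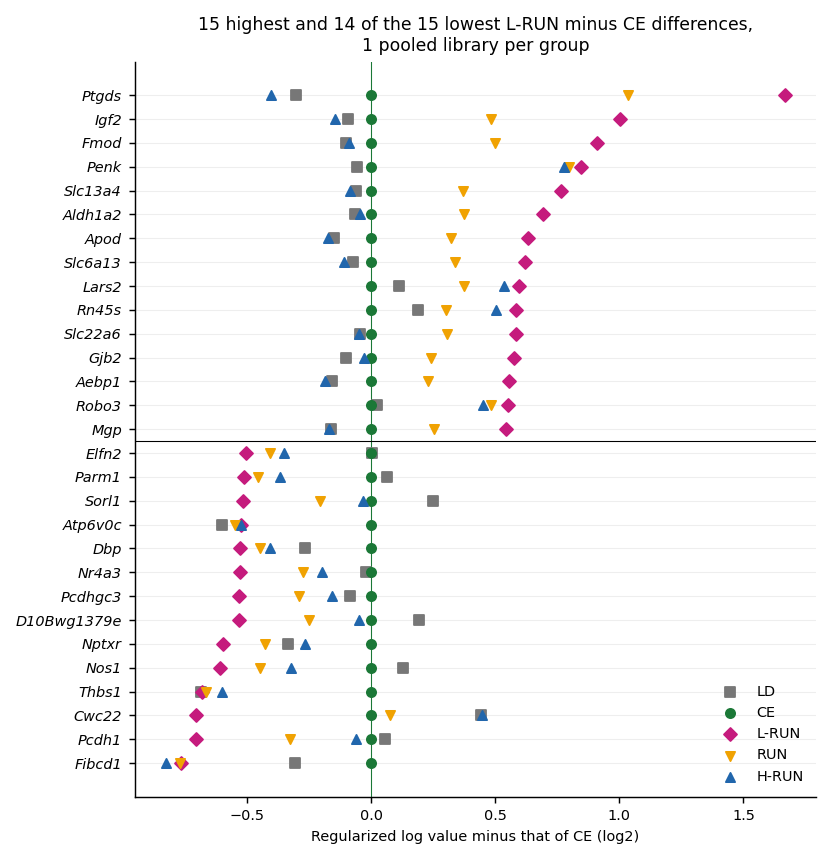
Regularized log value minus that of CE (x axis, log2) in each of the 5 libraries for the genes with the 15 highest L-RUN minus CE differences and for 14 of the 15 lowest, 1 point per library. L-RUN lies farthest right and H-RUN left of CE for Ptgds, Igf2 and Fmod, all libraries of runners are on the right for Penk and Robo3, and all libraries but CE are on the left for Thbs1 and Atp6v0c.

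The lowest difference was that of Fibcd1 (chromosome 2, 31813290 to 31846005, minus strand), a membrane receptor for acetylated sugars and a marker of CA1 pyramidal cells. It had 10.35 in LD, 10.66 in CE, 9.90 in L-RUN, 9.89 in RUN and 9.83 in H-RUN. L-RUN was 0.76 below CE (technical SD 0.040), and all 3 libraries of runners lay together below LD. Nos1, the neuronal nitric oxide synthase, had 9.32 in LD, 9.19 in CE, 8.58 in L-RUN, 8.74 in RUN and 8.87 in H-RUN, a difference of -0.61. Parm1 (-0.51), a membrane mucin, and Elfn2 (-0.50), a synaptic adhesion protein, were also lower in all libraries of runners than in LD and CE.

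In other genes of the lowest 15, L-RUN was low and H-RUN near CE. Pcdh1 (chromosome 18, 38185914 to 38212053, minus strand), a protocadherin, had 11.12 in LD, 11.06 in CE, 10.36 in L-RUN, 10.74 in RUN and 11.001 in H-RUN, a difference of -0.71. Sorl1, a sorting receptor for the amyloid precursor protein, had 12.11 in LD, 11.86 in CE, 11.34 in L-RUN, 11.65 in RUN and 11.82 in H-RUN, a difference of -0.52. In both genes H-RUN lay far closer to CE than to L-RUN. D10Bwg1379e, an older symbol of Arfgef3, was lower by 0.53 on the log2 scale in the same way. Cwc22 (chromosome 2, 77881159 to 77946375, minus strand), a splicing factor, had 13.68 in LD, 13.24 in CE, 12.54 in L-RUN, 13.32 in RUN and 13.69 in H-RUN, a difference of -0.70. Unlike in the genes before it, H-RUN lay above CE and level with LD for Cwc22, and CE lay below LD. This gene has near-identical copies whose number varies between mice, so its value is uncertain, and with the level derived from RUN and H-RUN the difference was -0.42.

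In a further set of genes CE was the highest library. Thbs1 (chromosome 2, 118111876 to 118127133), the matrix protein thrombospondin 1, which promotes synapse formation, had 6.24 in LD, 6.92 in CE, 6.24 in L-RUN, 6.26 in RUN and 6.32 in H-RUN. L-RUN was 0.68 below CE and level with LD. Atp6v0c (chromosome 17, 24163866 to 24169702, minus strand), the proteolipid subunit of the vacuolar proton pump, had 8.58 in LD, 9.18 in CE, 8.65 in L-RUN, 8.63 in RUN and 8.65 in H-RUN, a difference of -0.53. In both genes CE was the library that stood above the other 4. Nptxr, a receptor of the neuronal pentraxins, had 9.04 in LD, 9.38 in CE, 8.78 in L-RUN, 8.95 in RUN and 9.11 in H-RUN, with CE above LD and L-RUN below it. Dbp, a transcription factor of the circadian output, had 9.43 in LD, 9.69 in CE, 9.17 in L-RUN, 9.25 in RUN and 9.29 in H-RUN, and all 3 libraries of runners lay below LD.

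Markers of the leptomeninges were the list that leaned most towards L-RUN. Of the 15 transporters and transcription factors of these cells, 13 were expressed, 9 were at least 0.3 higher in L-RUN and 0 lower, with a median difference of 0.322 beside -0.004 for all expressed genes. All 13 were above 0. Besides Slc13a4, Aldh1a2, Slc6a13 and Slc22a6, the genes past the cut-off were Slc13a3 (0.38), Slc22a8 (0.37), Ranbp3l (0.32), Foxc1 (0.30) and Slc47a1 (0.30). The smallest difference of the list was that of Osr1, at 0.004. The log2 of their summed level was 10.77 in LD, 10.79 in CE, 11.22 in L-RUN, 10.99 in RUN and 10.78 in H-RUN, which makes L-RUN 1.35-fold CE. Foxc1, a transcription factor that defines meningeal cells, had 6.78 in LD, 6.78 in CE, 7.08 in L-RUN, 6.90 in RUN and 6.81 in H-RUN. Foxc2 and Foxd1 were too low to count as expressed, and no marker of the list was listed at 0. With the level of the low runners derived from RUN and H-RUN, as described at the end, 5 of the 9 passed again, with Slc13a3 at 0.26, Slc47a1 at 0.26, Foxc1 at 0.21 and Ranbp3l at 0.18. In bulk tissue, more cells of a type and more RNA per cell cannot be told apart.

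Matrix genes followed only in part. Of 32 expressed collagen chains, 2 were higher in L-RUN, Col6a3 (0.50) and Col3a1 (0.40), 0 were lower, and the median was 0.039. Col3a1 had 0.299 with the derived level and then missed the cut-off. Col6a3 had 7.36 in LD, 7.37 in CE, 7.87 in L-RUN, 7.63 in RUN and 7.30 in H-RUN, as the leptomeningeal genes did. Col1a2, a chain of collagen I, had 7.57 in LD, 8.02 in CE, 8.24 in L-RUN, 7.99 in RUN and 7.62 in H-RUN, so that L-RUN and CE both stood above LD and differed by 0.22. Col5a1 had 9.74 in LD, 10.18 in CE, 9.92 in L-RUN, 9.74 in RUN and 9.50 in H-RUN, a difference of -0.26. Of the small leucine-rich proteoglycans, 1 of 10 passed the cut-off, Fmod. Dcn (decorin) had 9.45 in LD, 9.82 in CE, 9.74 in L-RUN, 9.34 in RUN and 8.93 in H-RUN, with a difference of -0.08. Of 24 other matrix glycoproteins, Aebp1 and Mgp were higher, and Thbs1 and Matn2 (-0.45) lower, with a median of 0.017. The part of leptomeningeal tissue in the matrix genes was not tested.

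The genes of perineuronal nets, the matrix around some neurons, had a median of -0.104, and 1 of 9 passed the cut-off. This was Tnr (tenascin R), with 10.98 in LD, 10.82 in CE, 10.33 in L-RUN, 10.67 in RUN and 10.89 in H-RUN, a difference of -0.50. Hapln4, a link protein of the nets, missed it at -0.30, and Bcan (brevican) had -0.21. Among 28 proteases of the matrix and their inhibitors, Timp2 alone passed the cut-off, at -0.32. It had 12.64 in LD, 13.01 in CE, 12.68 in L-RUN, 12.53 in RUN and 12.48 in H-RUN, so CE was again the high library.

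In the insulin-like growth factor system, ligand, binding proteins and adaptor went different ways. Of 14 expressed genes, 2 were higher in L-RUN (Igf2 and Igfbp6) and 2 lower (Igfbp5 and Irs2), with a median of 0.017. Igfbp6, a binding protein with a preference for IGF2, had 8.13 in LD, 8.23 in CE, 8.68 in L-RUN, 8.58 in RUN and 8.58 in H-RUN, a difference of 0.45. Igfbp5 had 12.66 in LD, 12.62 in CE, 12.18 in L-RUN, 12.16 in RUN and 12.11 in H-RUN, a difference of -0.44. These 2 binding proteins had all libraries of runners on 1 side of LD and CE, unlike Igf2. Irs2, an adaptor of the insulin and IGF1 receptors, had 9.43 in LD, 9.42 in CE, 9.01 in L-RUN, 9.13 in RUN and 9.26 in H-RUN, a difference of -0.40. Igfbp2 had a difference of 0.25 and Igf1 of 0.14.

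Other growth factor genes differed less. Of 32 genes of the TGF-beta and BMP pathway, Bmp6, a ligand, was higher (0.35) and Bmpr2, the type II receptor of BMPs, lower (-0.44), with a median of -0.007. Bmpr2 had 9.43 in LD, 9.21 in CE, 8.77 in L-RUN, 9.01 in RUN and 9.21 in H-RUN. Of 21 genes of neurotrophins, FGFs, VEGFs and their receptors 0 passed the cut-off in either direction, and the largest in size was Ntrk2, the receptor of BDNF, at -0.28. Among 63 axon guidance genes, 1 was higher (Robo3) and 4 lower, Slit3 (-0.44), Plxna1 (-0.35), Sema4d (-0.32) and Slit1 (-0.32), and the median was -0.075. Slit3, a ligand of Robo receptors, had 10.83 in LD, 10.83 in CE, 10.39 in L-RUN, 10.53 in RUN and 10.63 in H-RUN.

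Receptors of glutamate were lower in L-RUN where they differed. Of 18 ionotropic receptor genes, 0 were higher and 5 lower, with a median of -0.129 (14 of 18 below 0). Grin2b (chromosome 6, 135713233 to 136173511, minus strand), an NMDA receptor subunit that prevails in young neurons, had 9.04 in LD, 8.80 in CE, 8.33 in L-RUN, 8.60 in RUN and 8.79 in H-RUN, a difference of -0.47 (technical SD 0.047). Grin2a (chromosome 16, 9567898 to 9995560, minus strand), the subunit of mature synapses, had 10.30 in LD, 9.88 in CE, 9.42 in L-RUN, 9.72 in RUN and 10.01 in H-RUN, a difference of -0.46. In both NMDA receptor genes LD was highest, CE in the middle and L-RUN lowest, and H-RUN lay near or above CE. Grik3, a kainate receptor subunit, had 10.42 in LD, 10.47 in CE, 10.05 in L-RUN, 9.96 in RUN and 9.88 in H-RUN, a difference of -0.42. Here H-RUN was the lowest library. Grin3a, an NMDA receptor subunit, had 9.96 in LD, 9.99 in CE, 9.64 in L-RUN, 9.66 in RUN and 9.62 in H-RUN, a difference of -0.35 with all libraries of runners level. Grid1, a delta receptor that binds cerebellins, had a difference of -0.41.

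The partners of these receptors at the synapse leaned the same way with smaller counts. Of 21 expressed scaffold and adhesion genes, 2 were lower, Shank1 (-0.44) and Shank3 (-0.32), with a median of -0.116. Shank1 had 12.96 in LD, 13.14 in CE, 12.70 in L-RUN, 12.80 in RUN and 12.90 in H-RUN. Of 10 metabotropic receptor and Homer genes 0 passed the cut-off, with Homer2 the largest in size at -0.29. Among 13 GABA receptor genes, Gabbr2 (-0.49), a subunit of the GABA-B receptor, and Gabra3 (-0.32) were lower, with a median of -0.015. Gabbr2 had 12.47 in LD, 12.63 in CE, 12.14 in L-RUN, 12.31 in RUN and 12.44 in H-RUN. Chrm3, a muscarinic receptor, was the 1 of 9 acetylcholine receptor genes past the cut-off (-0.33).

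Channels and calcium handling had 10 lower genes and 0 higher ones, beside 1.38% lower and 0.509% higher of all expressed genes. Of 70 potassium channel genes, Kcnq3 (-0.41), Kcnq5 (-0.35), Kcnj10 (-0.32), Kcnf1 (-0.32), Kcnj6 (-0.31) and Kcng1 (-0.30) were lower, with a median of -0.081. Kcnq3, a subunit of the M current that damps firing, had 9.14 in LD, 8.86 in CE, 8.45 in L-RUN, 8.60 in RUN and 8.75 in H-RUN. Of 28 genes of calcium channels, stores and pumps, Atp2b3 (-0.40), Cacna1b (-0.34), Cacna1i (-0.33) and Atp2b4 (-0.32) were lower, with a median of -0.126. With the trend of transcript length removed, as described below, only Kcnq3 (-0.33), Kcnj6 (-0.31) and Atp2b3 (-0.37) of the 10 genes still passed. Of 39 genes of PIP2, diacylglycerol and protein kinase C, Dgkh (-0.45) and Prkcb (-0.33) were lower. Dgkh, a kinase that removes diacylglycerol, had 10.45 in LD, 10.02 in CE, 9.57 in L-RUN, 9.95 in RUN and 10.22 in H-RUN, the order seen for Grin2a.

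Protocadherins are adhesion proteins. Of 63 expressed genes, 58 were below 0 with a median of -0.117, beside 7048 below 0 of all 13550 expressed genes. The 5 past the cut-off were Pcdh1, Pcdhgc3 (-0.53), Pcdhgc5 (-0.50), Pcdhac2 (-0.40) and Pcdhga7 (-0.31). Pcdhgc3 had 9.85 in LD, 9.94 in CE, 9.41 in L-RUN, 9.65 in RUN and 9.78 in H-RUN. The genes of the alpha and gamma clusters share their last exons, so that counts of a single variant are uncertain.

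**Figure D3:**
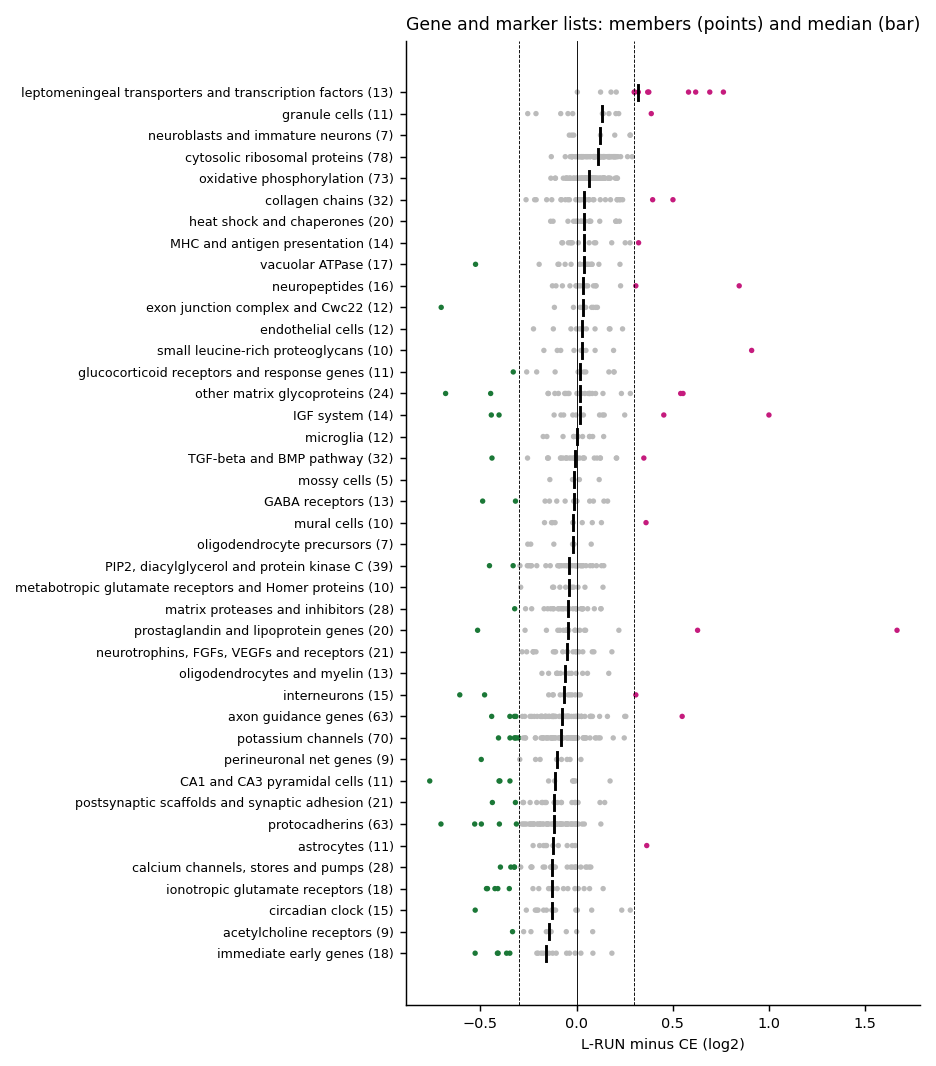
L-RUN minus CE (x axis, log2) of the expressed members of each gene or marker list with at least 5 of them, 1 point per gene, with the median as a bar, the number of members in brackets and dashed lines at 0.3 and -0.3. Leptomeningeal markers have the highest median (0.322) and immediate early genes the lowest (-0.158), and most members lie within 0.3 of 0.

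Immediate early genes had the lowest median of all lists, -0.158, with 0 of 18 higher and 5 lower. By sign, 15 were below 0 and 3 above, with Bdnf the highest at 0.18. Nr4a3 (chromosome 4, 48045153 to 48086447), an orphan nuclear receptor, had 8.32 in LD, 8.33 in CE, 7.81 in L-RUN, 8.06 in RUN and 8.14 in H-RUN, a difference of -0.53 (technical SD 0.047). Its relative Nr4a1 had 8.89 in LD, 8.95 in CE, 8.54 in L-RUN, 8.76 in RUN and 8.80 in H-RUN, a difference of -0.41, and Nr4a2 differed by -0.18. In the first 2 genes LD and CE were level and the libraries of runners lower, with L-RUN the lowest. Arc, a synaptic protein that takes AMPA receptors back into the cell, had 10.43 in LD, 10.39 in CE, 9.98 in L-RUN, 10.10 in RUN and 10.28 in H-RUN, a difference of -0.41. Egr3 (-0.36) and Egr1 (-0.35), zinc finger transcription factors, followed, Egr1 with 10.35 in LD, 10.42 in CE, 10.08 in L-RUN, 10.16 in RUN and 10.25 in H-RUN. Fos differed by -0.17 and Junb by -0.21. These genes answer within minutes to activity, and the time between the last running and the dissection is not given in the sources used here.

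The promoters of the 3 Nr4a genes are shown since these genes are textbook targets of CREB, the factor that binds the cAMP response element and its core TGACG. Each runs from 250 bases before to 50 bases after the annotated start (RefSeq, GRCm38.p6), 5′ to 3′ on the strand of the gene, with TGACG in capitals on either strand (CGTCA on the other).
Nr4a1 (chr15:101266596-101266895, plus strand): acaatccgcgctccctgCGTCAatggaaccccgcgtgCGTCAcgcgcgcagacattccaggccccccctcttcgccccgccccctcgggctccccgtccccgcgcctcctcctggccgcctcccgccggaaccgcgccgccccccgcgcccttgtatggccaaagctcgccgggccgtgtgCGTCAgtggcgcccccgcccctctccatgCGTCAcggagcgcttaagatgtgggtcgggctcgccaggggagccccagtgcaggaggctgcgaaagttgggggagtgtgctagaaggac
Nr4a2 (chr2:57123954-57124253, minus strand): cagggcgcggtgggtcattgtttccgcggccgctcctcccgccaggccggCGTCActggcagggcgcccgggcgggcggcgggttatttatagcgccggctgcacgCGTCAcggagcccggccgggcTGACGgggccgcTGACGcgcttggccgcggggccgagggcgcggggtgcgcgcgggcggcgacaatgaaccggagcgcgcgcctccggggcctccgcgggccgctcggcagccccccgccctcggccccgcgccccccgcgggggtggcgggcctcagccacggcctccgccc
Nr4a3 (chr4:48045055-48045354, plus strand): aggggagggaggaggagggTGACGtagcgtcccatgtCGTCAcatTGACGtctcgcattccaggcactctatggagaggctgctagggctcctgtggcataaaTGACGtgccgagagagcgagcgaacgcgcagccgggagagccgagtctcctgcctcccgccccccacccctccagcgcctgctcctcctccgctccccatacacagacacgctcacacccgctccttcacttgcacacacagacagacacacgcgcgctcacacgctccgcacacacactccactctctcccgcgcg
Each of the 3 promoters held the core 4 times. Of other immediate early genes searched, Fos had 2 copies and Jun 0. At least 4 copies were in 0.5% of 12996 promoters of expressed genes, and at least 1 copy in 29.9%. Of 18 expressed immediate early genes, 14 had a promoter in the reference set, and 12 of these held at least 1 copy in any of their promoters. Some of these genes, such as Bdnf and Egr2, have several promoters. This count of genes is thus a looser measure than the shares of single promoters and cannot be set against them. Other motifs were searched as well. The full element TGACGTCA had 0 copies in each of the 3 Nr4a promoters, beside at least 1 copy in 2.9% of promoters of expressed genes. GTAAACA, the core of FOX factor sites, was in 0 of 10 leptomeningeal genes with a promoter, beside 2.35% of single promoters of expressed genes. The promoter of Dbp held 0 copies of the E-box CACGTG. A match of letters is a description and no evidence of binding in these libraries, and Nr4a2, with as many copies of TGACG, did not pass the cut-off.

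**Figure D4:**
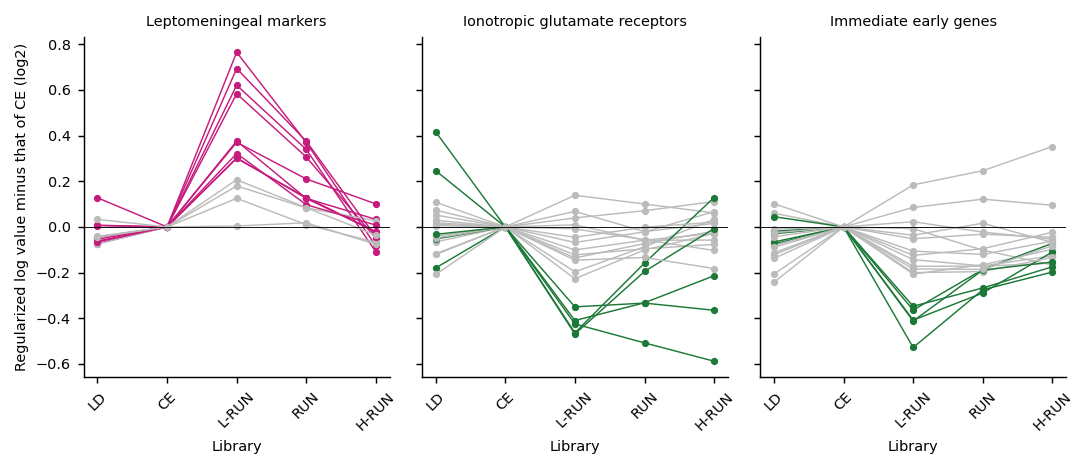
Regularized log value minus that of CE (y axis, log2) in each library (x axis) for the expressed leptomeningeal markers (13), ionotropic glutamate receptor genes (18) and immediate early genes (18), 1 line per gene, in pink where L-RUN was at least 0.3 above CE and in green where it was at least 0.3 below. The leptomeningeal markers peak in L-RUN and lie near CE in H-RUN, while the lower genes of the other lists have their lowest value in L-RUN, apart from Grik3 and Grin3a, which are lowest in H-RUN.

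Markers of neurons of the DG itself had medians of either sign. Over all expressed genes, 0.509% were higher and 1.38% lower. Of 11 granule cell markers, 1 was higher in L-RUN, Trpc6 (0.39), a cation channel, and 0 were lower, with a median of 0.135. Prox1, the transcription factor that defines granule cells, had 12.01 in LD, 11.86 in CE, 11.61 in L-RUN, 11.76 in RUN and 11.93 in H-RUN, a difference of -0.25. It was thus expressed in every library. Of 7 expressed markers of neuroblasts and immature neurons 0 passed the cut-off, 4 were above 0 and 3 below, and the median was 0.125. Igfbpl1 had 0.28, Sox11 0.28, Neurod1 0.20 and Dcx -0.04. Sox11 had 10.37 in LD, 10.22 in CE, 10.50 in L-RUN, 10.37 in RUN and 10.37 in H-RUN. Of 5 markers of mossy cells 0 passed the cut-off, with a median of -0.014. Among 15 interneuron markers, Npy was higher (0.31) and Nos1 and Kit (-0.48) lower, with a median of -0.065.

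Markers of CA1 and CA3 pyramidal cells, which adjoin the DG, were lower in L-RUN in 4 of 11 genes and higher in 0, with a median of -0.114. These 4 were Fibcd1, Wfs1 (-0.40), Mpped1 (-0.40) and Pou3f1 (-0.35). Wfs1, a protein of the endoplasmic reticulum, had 10.44 in LD, 10.51 in CE, 10.11 in L-RUN, 10.41 in RUN and 10.62 in H-RUN. The log2 of the summed level of the list was 12.94 in LD, 12.998 in CE, 12.73 in L-RUN, 12.87 in RUN and 12.96 in H-RUN, so L-RUN had 0.833 times the level of CE. The part of CA1 and CA3 tissue in the lower synaptic genes was not tested.

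Markers of glia and vessels had a single gene or none past the cut-off in each list. Over all expressed genes, 0.509% were higher and 1.38% lower. Of 11 astrocyte markers, Gjb6 (connexin 30) was higher (0.37) and was the only 1 above 0. The other 10 were below 0, and the median was -0.123. For oligodendrocytes (13 genes), their precursors (7), microglia (12) and endothelial cells (12), 0 genes passed in either direction, with medians of -0.058, -0.021, 0.004 and 0.031. Vtn (0.36) was the 1 of 10 mural cell markers past the cut-off, with 4 above 0, 6 below 0 and a median of -0.019. Mrc1 (0.27) and F13a1 (0.14) were the 2 of 6 expressed markers of border macrophages, the macrophages of the meninges. Of the choroid plexus and ependymal markers, 4 of 15 were expressed. Ttr (transthyretin), their most used marker, had 7.83 in LD, 8.45 in CE, 7.97 in L-RUN, 8.01 in RUN and 7.97 in H-RUN, a difference of -0.49 with CE as the high library. The other 3, Kl, Foxj1 and Sostdc1, lay between -0.09 and 0.04. Of the red blood cell markers 3 had a row and 0 were expressed, with Hba-a1 and Hba-a2 listed at 0.

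Neuropeptide, lipid and hormone lists each had a gene or more past the cut-off, and clock genes leaned lower in L-RUN. Over all expressed genes, 0.509% were higher and 1.38% lower. Of 16 neuropeptide genes, Penk and Npy were higher, with a median of 0.036, and Tac1 had 0.23. Among 20 genes of prostaglandins and lipoproteins, Ptgds and Apod were higher and Sorl1 lower, with a median of -0.046. Of 11 genes of glucocorticoid receptors and responses, Zbtb16 was lower (-0.33), with a median of 0.020, and Sgk1 had 0.20. Of 15 clock genes, 11 were below 0 with a median of -0.129. Dbp passed the cut-off, while Arntl, which peaks in the opposite phase to Dbp, had 0.28 and Nr1d1 -0.26. For Arntl the values were 10.15 in LD, 10.02 in CE, 10.30 in L-RUN, 10.28 in RUN and 10.25 in H-RUN, so that the libraries of runners lay together above CE. The hours of dissection are not given in the sources used here.

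Genes of ribosomes and of energy metabolism were mostly a little higher in L-RUN, while 6502 of all 13550 expressed genes were above 0. Of 78 genes of cytosolic ribosomal proteins, 69 were above 0 with a median of 0.114, and 0 passed the cut-off. Rpl39 had the largest difference (0.29). Of 73 genes of oxidative phosphorylation, 57 were above 0 with a median of 0.065, and 0 passed. Both lists hold short transcripts (median length 1107.5 and 1186 bases, beside 3523 over all genes), and the shortest decile had a median difference of 0.048. With the trend with length removed, as described below, the list medians were 0.065 and 0.018. The vacuolar proton pump had 1 of 17 genes past the cut-off, Atp6v0c, with a median of 0.037. Heat shock genes (20, median 0.038) had 0 past it, and MHC and antigen presentation genes (14, median 0.038) had 1, Cd74 (0.32). Cd74 had 6.15 in LD, 5.72 in CE, 6.05 in L-RUN, 5.93 in RUN and 5.75 in H-RUN. In the list of the exon junction complex, Cwc22 was the 1 of 12 past the cut-off.

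The difference also went with the length of transcripts. Across 12741 genes with a length, Spearman's rho of L-RUN minus CE with length was -0.302, a description across genes that share 2 libraries. The median difference went from 0.048 in the shortest decile to -0.064 in the longest. The shortest decile held 15 higher and 2 lower genes, and the longest 3 higher and 65 lower. The median length was 3043.5 bases in the higher genes and 5720 in the lower genes, beside 3523 in all. The same rho was 0.327 for LD minus CE, -0.201 for RUN minus CE and 0.012 for H-RUN minus CE, all against the same CE library. With the trend removed, 126 genes were lower and 70 higher. The median of the leptomeningeal list was then 0.339, that of ionotropic glutamate receptors -0.106 and that of immediate early genes -0.168. That of clock genes was -0.110, that of protocadherins -0.087, and that of ribosomal proteins went from 0.114 to 0.065. Oxidative phosphorylation went from 0.065 to 0.018, calcium genes from -0.126 to -0.079, scaffolds from -0.116 to -0.0735, CA1 and CA3 markers from -0.114 to -0.0725, astrocyte markers from -0.123 to -0.081, perineuronal nets from -0.104 to -0.0595 and axon guidance genes from -0.075 to -0.045, all nearer to 0 by over 1.5 times. Of lists with medians already near 0, the vacuolar proton pump went to 0.015 and prostaglandin and lipoprotein genes to -0.006, while collagen chains went to 0.079 and other matrix glycoproteins to 0.068. Of the genes named above, Plxna1 (-0.28), Slit1 (-0.28), Grin3a (-0.298), Shank3 (-0.27), Kcnq5 (-0.298), Kcnj10 (-0.29), Kcnf1 (-0.29), Kcng1 (-0.29), Pcdhga7 (-0.29), Slc47a1 (0.299), Cacna1b (-0.27), Cacna1i (-0.26), Atp2b4 (-0.25), Npy (0.22) and Cd74 (0.29) then missed the cut-off.

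**Figure D5:**
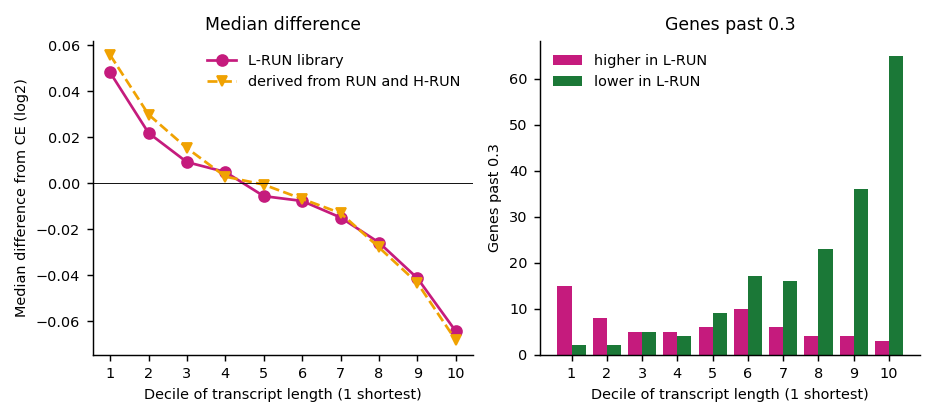
Left, median difference from CE (y axis, log2) by decile of transcript length (x axis, 1 shortest), with the L-RUN library or with the level derived from RUN and H-RUN. Right, number of genes at least 0.3 higher or lower in L-RUN per decile. The median goes from 0.048 to -0.064, and lower genes go from 2 to 65.

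The RUN and H-RUN libraries gave a further reading of the low runners, log2 of 2 times RUN minus H-RUN on the linear scale, from the same mice but other libraries. All 69 higher and all 187 lower genes kept their direction against CE, which both readings share. Of these, 47 and 136 passed the cut-off again. The median over the higher genes was 0.346 with this reading and 0.374 with the L-RUN library, and over the lower genes -0.355 and -0.357. Ptgds had 1.74, Igf2 0.92, Penk 0.82, Fibcd1 -0.71, Pcdh1 -0.65, Nr4a3 -0.36 and Grin2b -0.41. Nr4a1 (-0.22), Plxna1 (-0.24), Prkcb (-0.26), Kcnf1 (-0.28), Kcnj6 (-0.28), Mfge8 (-0.29) and Npy (0.29) missed the cut-off, beside Rn45s, Lars2, Col3a1 and the 4 leptomeningeal genes above. The median of the leptomeningeal list was then 0.258 and that of perineuronal nets -0.171. With quantile normalization, Foxc1 (0.296), Slc47a1 (0.287), Shank3 (-0.293), Slit1 (-0.287) and Mfge8 (-0.283) missed it, and with centring on the median Kcng1 (-0.297) and Mfge8 (-0.296).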

How the data were processed

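RNA of the DG of male CD1 mice was pooled within groups and sequenced as 1 TruSeq library of polyadenylated RNA per group. Per the labels and the submitters' processing notes, reads were handled with CASAVA 1.8.2, mapped to mm10 with TopHat2 2.0.10 and counted on RefSeq genes with HTSeq. The authors then normalized all libraries at once with DESeq2 1.10.1 and deposited regularized log values, on the log2 scale, per gene. Counts were not analysed here, so the depth is unknown and no counting interval can be given. Whether counting used the strand is not given in the sources used here. Differences of these log2 values were computed as L-RUN minus CE. A fold change is on this shrunken scale and understates the change of low genes.

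A gene was expressed at a mean of at least 5 over the 5 libraries and passed at a difference of at least 0.3, the cut-off of the study. The technical SD came from RUN minus a mixture computed from both sorted libraries in equal parts, unlogged (median absolute deviation times 1.4826, by decile), and this residual was given 1.5 times the variance of 1 library. Lengths (longest transcript) and positions came from GENCODE M21 (GRCm38, the same build as mm10) by symbol, and the trend with length was removed by lowess (fraction 0.3). Named genes are the 15 highest and 15 lowest differences and, in each of 44 lists (29 of functions and 15 of markers), the 4 expressed members with the largest difference in size, 176 genes in all, and further members past 0.3. Of the 15 lowest, 1 gene is not reported here. Members, lists and tests were chosen with earlier results of these data known. The scripts were tested on simulated data. Tables were handled with pandas 2.3.3 and numpy 2.4.6 in Python 3.11.15, lowess came from statsmodels 0.14.6, correlations from scipy 1.17.1 and plots from matplotlib 3.10.9.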

Additional observations from a re-analysis of the deposited data

How the results depend on the processing

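With a cut-off of 0.4, 22 genes were higher and 64 lower in L-RUN (86 in all), as the stricter limit leaves fewer genes. Requiring also 3 times the technical SD, centring on the median, quantile normalization, a minimum mean of 7 or none, removal of the trend with length and the level derived from RUN and H-RUN gave 58 to 81 higher and 126 to 212 lower genes, within 1.5 times the counts reported. The SD of the differences was 0.0967 to 0.120 and Spearman's rho with length -0.258 to -0.313 where they could be computed. The median over all genes was 0.004 with quantile normalization and -0.004 as deposited. Medians of 5 lists crossed 0: mossy cells (0.004) and microglia (-0.007) without the trend with length, microglia (-0.028), the IGF system (-0.011) and the TGF-beta and BMP pathway (0.005) with the derived level, and GABA receptors (0.022) with quantile normalization. Border macrophages had no median at a minimum mean of 7, since no member passed it. No paired analysis was possible because each group had 1 library, and for the same reason no library could be left out of a group. The unknown depth limits what can be said of low genes.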

Other observations

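Some genes past the cut-off lie next to each other. They were chosen after their values were seen. Htra4 (chromosome 8, 25024929 to 25038962), a serine protease, and Plekha2 (25039144 to 25102376), both on the minus strand, had the same shape as Penk. Htra4 had 8.62 in LD, 8.63 in CE, 9.15 in L-RUN, 9.17 in RUN and 9.20 in H-RUN, and Plekha2 had 11.84 in LD, 11.78 in CE, 12.18 in L-RUN, 12.25 in RUN and 12.30 in H-RUN. Reads that run from Plekha2 into Htra4 cannot be told apart from transcripts of Htra4. Rgs4, a brake on G protein signals, had 12.03 in LD, 12.01 in CE, 12.41 in L-RUN, 12.40 in RUN and 12.45 in H-RUN. Slc22a6 and Slc22a8 are near neighbours on chromosome 19, as are Gjb2 and Gjb6 on chromosome 14, and all 4 were higher in L-RUN.

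Several lower genes that no list held were high in CE. Chosen after their values were seen as well, Htr2c, a serotonin receptor, had 8.65 in LD, 9.12 in CE, 8.77 in L-RUN, 8.51 in RUN and 8.34 in H-RUN. Cpne7, a copine, had 12.20 in LD, 12.68 in CE, 12.27 in L-RUN, 12.17 in RUN and 12.08 in H-RUN. Crym, a thyroid hormone binding protein, had 11.97 in LD, 12.31 in CE, 12.01 in L-RUN, 11.95 in RUN and 11.89 in H-RUN. Crym lay just past the cut-off at -0.301 and missed it with quantile normalization (-0.286) and with centring on the median (-0.297). In these 3 genes CE was the highest of the 5 libraries and H-RUN the lowest. Gm129, an older symbol of the clock repressor Ciart, which the list of clock genes missed under its present name, had 7.38 in LD, 7.51 in CE, 7.17 in L-RUN, 7.199 in RUN and 7.18 in H-RUN, a difference of -0.34 (-0.29 with the level derived from RUN and H-RUN), with all 3 libraries of runners below LD as for Dbp.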
